A study of Mus musculus with 8 samples.

Results

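The genes of acetylcholine signalling were followed in the cortex of mice that carry an altered Argonaute 2, the protein that holds a microRNA (miRNA) guide and lowers the output of matching mRNAs. The set holds 34 genes, found by their symbols among the 55416 genes of the count table. It covers acetylcholine synthesis and transport (3 genes), its breakdown (4), muscarinic receptors (5), neuronal (11) and muscle (5) subunits of nicotinic receptors, Ly6 proteins that modulate these receptors (4) and nicotinic receptor chaperones (2). The 4 L192P libraries came from mice heterozygous for an L192P knock-in allele of Ago2 (AGO2_L192P/+), made by CRISPR/Cas with founders crossed to C57/Bl6 mice, and the 4 WT libraries from wild-type mice. No other allele or agent was named for either group, and age and sex were not given in the labels used here. All 8 libraries are polyadenylated RNA of cerebral cortex, and the comparison asked which transcripts differ between the genotypes.

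Acetylcholine is made from choline by the product of Chat, packed into vesicles by the product of Slc18a3 and split after release by acetylcholinesterase. The freed choline is taken back into the terminal by the product of Slc5a7. Most cholinergic axons of the cortex belong to neurons of the basal forebrain, whose cell bodies lie outside the cortex, and a sparse class of cortical interneurons also makes Chat, often together with Vip. Large cholinergic interneurons are a hallmark of the neighbouring striatum. Muscarinic receptors act through G proteins, whereas nicotinic receptors are ion channels of 5 subunits.

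The libraries held between 20396357 and 43575900 counts, and 18627 genes entered the adjusted test. Cortical neuron markers were abundant in every library, with a summed level of 54338 to 59804 normalized counts in L192P and 59275 to 60236 in WT. Striatum markers were present in every library as well, at summed levels of 26730 to 34539 in L192P and 34988 to 43332 in WT. Replicate 1 of either genotype stood apart from the rest, with 0.934 and 1.82 normalized counts of Xist against 5185 or more in the other libraries. Xist is made in female cells, and by its level replicate 1 read as male and replicates 2 to 4 as female. A normalized count is a read count divided by the size factor of its library. In bulk tissue, fewer cells of a type and less RNA per cell cannot be told apart.

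None of the members passed the test at a DESeq2 adjusted p under 0.05. Of the 34 members, 28 entered the adjusted test, 0 were called, and 1.36% of all tested genes were called. An unadjusted DESeq2 p under 0.05 was found for 10 of the 28 (35.7%), beside 9.44% of all tested genes. Of these 10, 7 were higher and 3 lower in L192P, beside 4.94% and 4.49% of all tested genes. The higher ones were Slc5a7, Chrm2, Ache, Chrnb2, Lypd1, Chat and Lypd6, and the lower ones Colq, Lynx1 and Chrm4. By edgeR, too, 0 members were called, beside 0.314% of all genes in that test, and 9 of 27 had an unadjusted p under 0.05, beside 10.6%. The median log2 fold change over the 28 was 0.14, beside 0.0019 over all tested genes. The 4 L192P values lay wholly above or below the 4 WT values for 3 of the 28, namely Chrm2 and Chrnb2 (above) and Chrm1 (below), a share of 10.7% beside 5.97% of all tested genes.

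**Figure D1:**
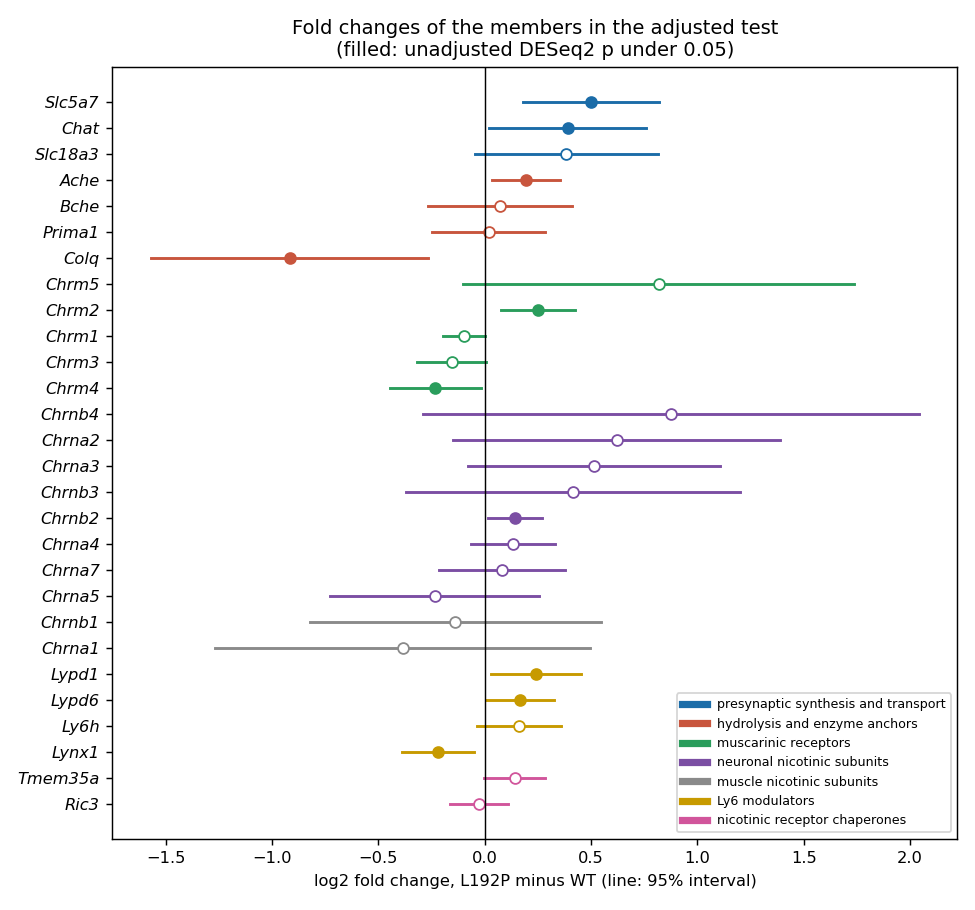
Log2 fold changes (L192P minus WT, x axis) of the 28 members in the adjusted test, by class, with lines for the 95% interval of the DESeq2 estimate and filled points for an unadjusted p under 0.05. All 3 presynaptic genes lie above 0, between 0.38 and 0.50, and Colq has the lowest value, -0.92.

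The same-numbered libraries of both genotypes moved together. In a DESeq2 fit with the replicate number as a block, 4.25% of the genes tested were called. Of the 19 members with an adjusted p in it, 3 were called. These were Lynx1 (log2 fold change -0.21, adjusted p = 0.00189), Slc5a7 (0.48, adjusted p = 0.0251) and Lypd1 (0.25, adjusted p = 0.0441). An edgeR fit with the same block tested 28 members and called Lynx1 and Slc5a7 (adjusted p = 0.028 and 0.0381), where 3.01% of genes were called. It gave 0.0595 for Lypd1. On replicates 2 to 4 alone, DESeq2 called Lynx1, Slc5a7, Lypd1 and Chrm4 of 23 members, where 3.46% of all genes tested were called. Without WT replicate 1 it called the same 3 as with the block, out of 25 members with an adjusted p, where 3.24% were called. That fit keeps L192P replicate 1 without its same-numbered WT library, so the library low in Xist is in L192P alone. Without L192P replicate 3 DESeq2 called Slc5a7 alone of 27 members (0.76% of all genes). Without L192P replicate 1 it called Chrna6 alone of 28 members (1.61% of all genes).

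**Figure D2:**
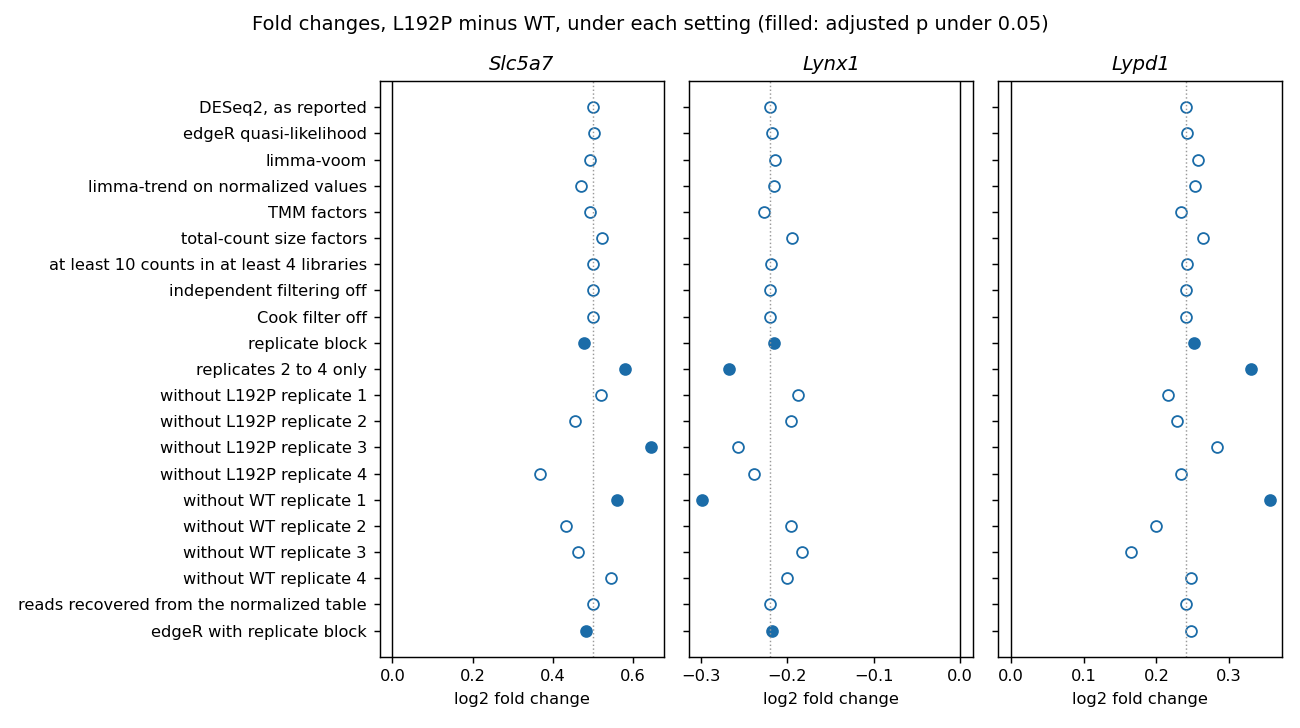
Log2 fold changes (x axis) of Slc5a7, Lynx1 and Lypd1 under each setting (y axis), with filled points for an adjusted p under 0.05 and a dotted line at the DESeq2 value as reported. The direction of each gene is the same in all settings, and the filled points are those with the replicate block, on replicates 2 to 4, or without L192P replicate 3 or WT replicate 1.

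Because Argonaute 2 acts through miRNA seeds, the 3′ UTRs of the members were searched for matches to 8 miRNA families of brain or of interest to the study. The seed (bases 2 to 8 of the miRNA) is in capitals in the sequences of the 4 families shown here, each of which has a site in Lynx1, Slc5a7 or Lypd1. The mature sequences are from RefSeq.
mmu-miR-138-5p: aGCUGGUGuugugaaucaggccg
mmu-miR-128-3p: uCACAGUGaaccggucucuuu
mmu-miR-5121: aGCUUGUGaugagacaucucc
mmu-miR-132-3p: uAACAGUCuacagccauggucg

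The site for each seed is its reverse complement of 7 bases, read on the mRNA strand only: CACCAGC for miR-138-5p, CACTGTG for miR-128-3p, CACAAGC for miR-5121 and GACTGTT for miR-132-3p. The windows below are a selection from the 3′ UTRs of GENCODE M39 on GRCm39, with the site in capitals. They belong to Lynx1, Slc5a7, Lypd1 and, for comparison, Chat and Chrm2. Lypd1 also has a miR-138-5p site and a miR-128-3p site, and Chrm2 also has miR-128-3p sites, whose windows are not printed. Sites of the other families searched are not printed either.
Lynx1, miR-138-5p site, chr15:74622378-74622407, minus strand: cttcattcacaCACCAGCtgctgggccttg
Lynx1, miR-138-5p site, chr15:74621387-74621416, minus strand: aacatgcacacCACCAGCagcagcagcaag
Lynx1, miR-128-3p site, chr15:74620436-74620465, minus strand: gagtgttctcaCACTGTGataaacagtggc
Slc5a7, miR-5121 site, chr17:54582721-54582750, minus strand: attattctaagCACAAGCaacacaaaccat
Lypd1, miR-5121 site, chr1:125796966-125796995, minus strand: tgactatgccaCACAAGCaggttctagaga
Lypd1, miR-132-3p site, chr1:125795961-125795990, minus strand: tcaatggtttcGACTGTTttgctagcctct
Chat, miR-128-3p site, chr14:32129823-32129852, minus strand: atcaaaccatgCACTGTGagggtgtaagac
Chrm2, miR-5121 site, chr6:36504168-36504197, plus strand: agttttgaatgCACAAGCtatgctcccccc

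Of the tested members with a 3′ UTR, 26 in all, a miR-128-3p site was found in 11 (42.3%, beside 24.5% of 14891 tested genes) and a miR-138-5p site in 7 (26.9%, beside 15.7%). A miR-5121 site was found in 6 (23.1%, beside 11.2%) and a miR-132-3p site in 6 (23.1%, beside 13.7%). The sites for miR-92-3p were found in 3, for miR-29-3p in 4, for miR-9-5p in 3 and for let-7-5p in 4, beside 8.07%, 16.7%, 15.5% and 11.6% of the tested genes. These shares were not adjusted for the length of the 3′ UTRs, which differs between genes. The letter matches are a description of the windows and no evidence of binding. The members with a miR-5121 site were higher (Slc5a7, Chrm2, Lypd1, Chrna4) as well as lower (Chrm1, Colq) in point estimate. The 3′ UTR of Ache held none of the 8 sites.

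Per exon length, the levels of the members with reads ran from 0.204 normalized counts per kb in WT for Chrng to 2521 for Lynx1, and Ly6 and chaperone genes led the order. Lynx1, an anchored Ly6 protein that dampens nicotinic receptors, had an SD of 284 over the 4 WT libraries and was followed by Ly6h at 1211 and Tmem35a at 918. Chrm1 was next at 564 per kb, and Chrm4, Ache, Chrm3 and Ric3 lay between 229 and 363. Of the 33 neighbouring pairs in this order, the WT ranges of 22 overlapped. The main nicotinic subunits of brain, Chrnb2 and Chrna4, had 163 and 152 per kb with overlapping ranges. The presynaptic genes were lower, at 43.1 for Slc5a7, 35.4 for Slc18a3 and 25.5 for Chat. The muscle subunits Chrne and Chrng and the neuronal subunits Chrna6, Chrnb4, Chrna10 and Chrna9 were the lowest members with reads, with Chrng at the bottom, and Chrnd had 0 reads in all 8 libraries.

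**Figure D3:**
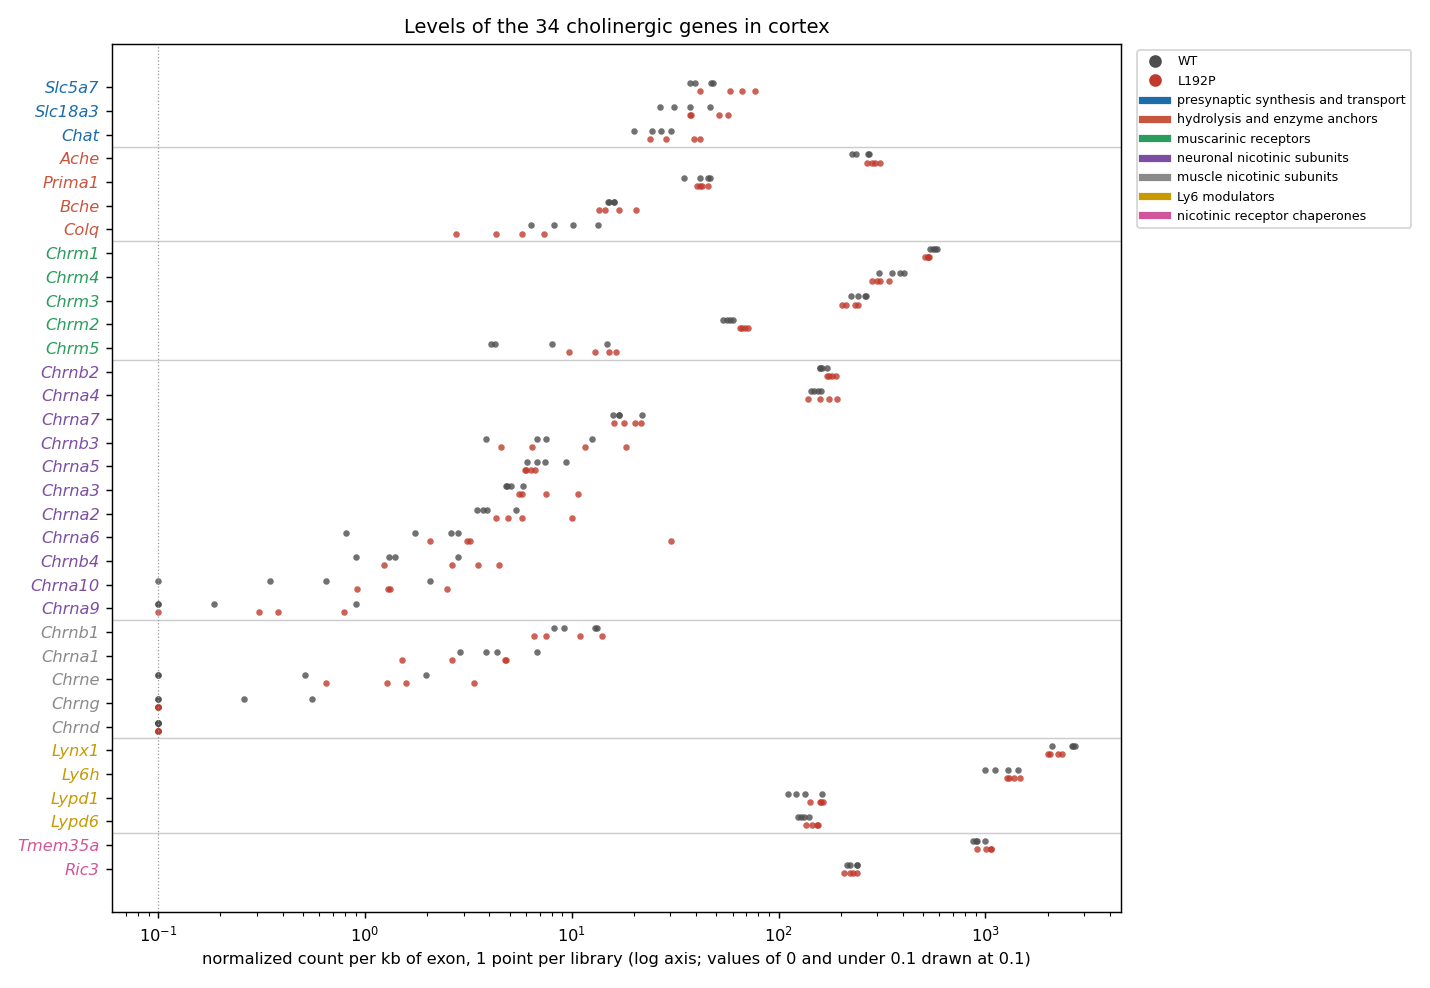
Normalized count per kb of exon (log axis) of the 34 members in each library, grey for WT and red for L192P, with the classes by the colour of the gene name. Lynx1 is the highest member, at 2521 per kb in WT on average, and Chrnd the lowest, with no reads.

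The presynaptic genes had higher means in L192P, but their libraries overlapped with WT and 0 of 3 passed. Slc5a7, the choline transporter of the terminal (ENSMUSG00000023945, GRCm39 chromosome 17, 54580020 to 54606076, minus strand), had 386, 439, 277 and 511 normalized counts in L192P replicates 1 to 4 and 319.6, 247, 263 and 313 in WT replicates 1 to 4. L192P replicates 1, 2 and 4 lay above every WT library, and L192P replicate 3 fell within the WT range. The difference on the log2 scale was 0.50 ± 0.16 (SE), with a 95% interval of 0.18 to 0.82 (DESeq2 adjusted p = 0.112). Permuting the genotypes over the libraries gave an exact two-sided p = 0.0857, where the smallest p this test can give is 0.0286. The adjusted p of Slc5a7 was 0.00143 without L192P replicate 3 and 0.0372 without WT replicate 1, in a range over all alternatives of 0.00143 to 0.453.

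Chat, the synthetic enzyme (ENSMUSG00000021919, chromosome 14, 32129369 to 32187946, minus strand), had 178, 258, 149 and 242 normalized counts in L192P replicates 1 to 4 and 168, 124, 188 and 152 in WT. L192P replicates 2 and 4 were above all WT libraries, and the other 2 lay inside the WT range. The log2 difference was 0.39 ± 0.19 (SE, DESeq2 adjusted p = 0.477, exact permutation p = 0.2). Slc18a3, the vesicular transporter, lies within Chat (32184395 to 32186807, minus strand). It had 90.6, 138, 89.9 and 125 normalized counts in L192P and 90.1, 64.4, 75 and 112 in WT, so that L192P replicates 2 and 4 were again the highest. For this gene the log2 difference was 0.38 ± 0.22 (SE, DESeq2 adjusted p = 0.618, exact permutation p = 0.171). Exons of Litchi on the opposite strand overlap both genes, and whether counting used strand is not known, which leaves the counts of both uncertain to that extent.

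**Figure D4:**
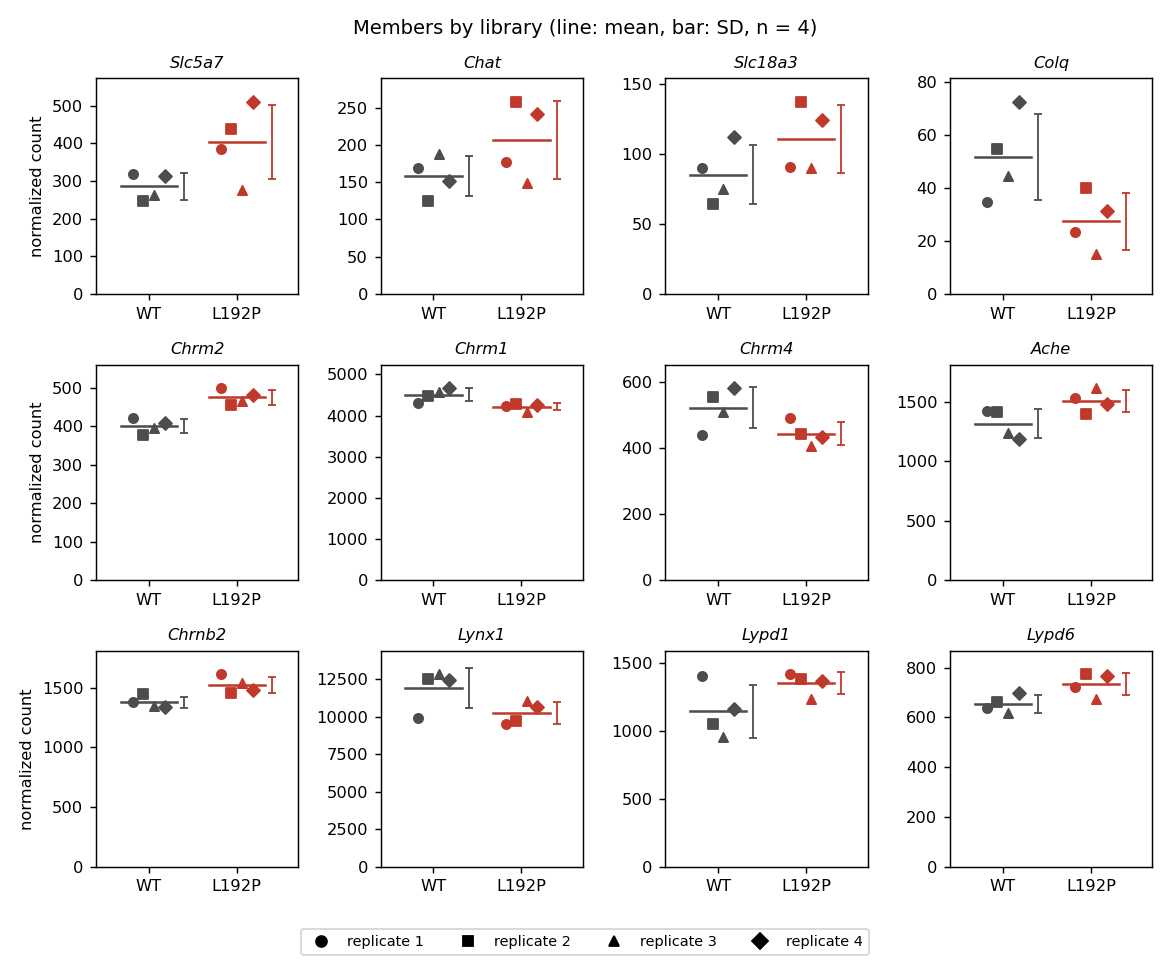
Normalized counts (y axes from 0) of 12 members in each library, by genotype, with a symbol per replicate, a line for the mean and a bar for the SD (n = 4). The L192P values of Slc5a7, Chat and Slc18a3 are highest in replicates 2 and 4, while Chrm2, Chrnb2 and Chrm1 do not overlap between the genotypes.

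Identity genes of cholinergic neurons from outside the set were examined as well, and 1 of 5 was called. Ngfr, the low-affinity neurotrophin receptor carried by basal forebrain cholinergic neurons, had 152, 267, 176 and 234 normalized counts in L192P replicates 1 to 4 and 131, 91.5, 93.4 and 85.5 in WT. Every L192P library was above every WT library (log2 fold change 1.04 ± 0.20 SE, DESeq2 adjusted p = 9.92e-05). The call held in 19 of 20 alternatives, which include a refit of the same counts. It was lost by limma-voom, whose adjusted p of 0.0621 ended a range that began at 3.29e-08. Ngfr is not expressed by cholinergic neurons alone.

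Lhx8 and Gbx1, transcription factors of forebrain cholinergic neurons, did not pass. Lhx8 had 129.9, 187, 68 and 178 normalized counts in L192P replicates 1 to 4 and 98.3, 60.4, 84.7 and 57.4 in WT (log2 fold change 0.91 ± 0.28 SE, DESeq2 adjusted p = 0.0697). Gbx1 had 77.5, 93.3, 39.2 and 85.0 in L192P and 53.7, 36.7, 31.5 and 22.2 in WT (1.02 ± 0.31 SE, DESeq2 adjusted p = 0.0675). In both genes L192P replicate 3 was the lowest L192P library and lay within the WT range, as it did for Slc5a7 and Chat. Without L192P replicate 3 the adjusted p was 0.000371 for Lhx8 and 0.0058 for Gbx1, and without WT replicate 1 it was 0.012 and 0.0069. With the replicate block the adjusted p of Lhx8 was 0.397. Isl1, another transcription factor of these neurons, had a DESeq2 adjusted p of 0.588 at a log2 fold change of 0.31. The summed level of the 5 genes was 496 to 864 normalized counts in L192P and 369 to 537 in WT, and the part of this list in the values of the presynaptic genes was not tested.

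**Figure D5:**
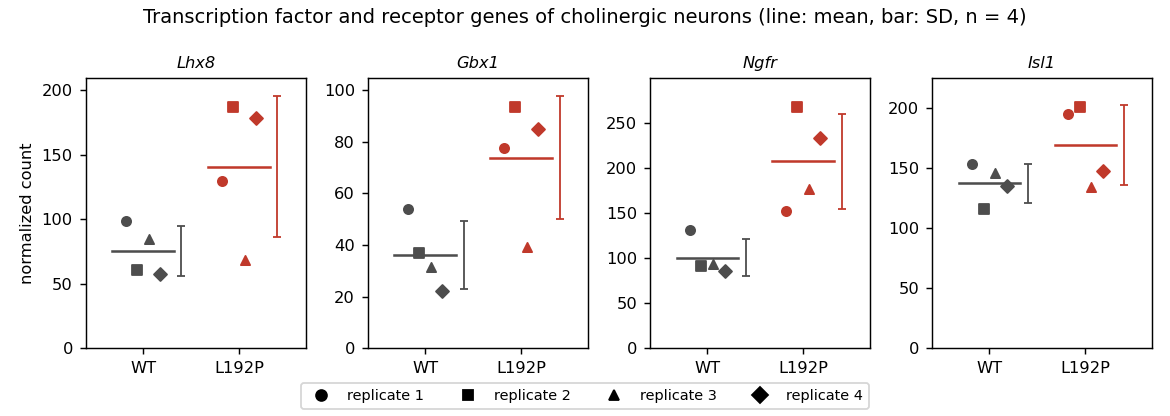
Normalized counts (y axes from 0) of Lhx8, Gbx1, Ngfr and Isl1 in each library, with a symbol per replicate, a line for the mean and a bar for the SD (n = 4). Ngfr does not overlap between genotypes, whereas L192P replicate 3 lies within the WT range for the other 3.

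Markers of the cells and regions that could carry cholinergic transcripts were read beside these values. Among VIP interneuron markers, Vip itself averaged 984 normalized counts in L192P and 978 in WT (log2 fold change 0.0054). Calb2, which encodes calretinin, and Tac2, a tachykinin precursor, were called higher (log2 fold change 1.11 and 0.53, DESeq2 adjusted p = 0.0144 for each), where 0.789% of all tested genes were called higher and 0.569% lower. The Calb2 call was lost on leaving out L192P replicate 1, 2 or 3 or WT replicate 2 or 3 (adjusted p from 0.0505 to 0.116). That of Tac2 was lost on leaving out L192P replicate 1, 3 or 4 or WT replicate 2, 3 or 4 (from 0.061 to 0.135). Among the 8 striatum markers 0 were called higher and 1 lower. The median of the list was -0.29, and 6 of its 8 genes had an unadjusted p under 0.05, all lower. The part of striatal tissue in the cholinergic values was not tested.

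The enzymes that end the signal and their anchors differed in direction, and 0 of 4 passed. Ache, which encodes acetylcholinesterase (ENSMUSG00000023328, chromosome 5, 137285781 to 137292728, plus strand), had 1533, 1399.7, 1618 and 1485 normalized counts in L192P replicates 1 to 4 and 1426, 1412, 1241 and 1186 in WT. The groups overlapped through L192P replicate 2, and the log2 difference was 0.19 ± 0.08 (SE, DESeq2 adjusted p = 0.335, exact permutation p = 0.0857). An exon of Gm57304 overlaps Ache on the opposite strand. Colq, the collagen tail that fixes acetylcholinesterase to the extracellular matrix (ENSMUSG00000057606, chromosome 14, 31243665 to 31313300, minus strand), was weakly expressed, at 23.4, 39.8, 15 and 31.1 normalized counts in L192P and 34.6, 54.8, 44.5 and 72.6 in WT. Only L192P replicate 2 reached into the WT range. The log2 difference of -0.92 was the lowest among the tested members, with a 95% interval of -1.57 to -0.26 (DESeq2 adjusted p = 0.186, exact permutation p = 0.0571).

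An exon of Gm49387 overlaps Colq on its own strand, so reads there may be split. Prima1, the membrane anchor of the enzyme in brain, had 184 ± 9.81 normalized counts in L192P and 182 ± 23 in WT (SD, n = 4), and the log2 difference of 0.019 had a 95% interval of -0.25 to 0.29. Bche, the second cholinesterase, had 110 ± 20.5 and 105 ± 3.47, for a log2 difference of 0.071 (interval -0.27 to 0.41).

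The muscarinic receptors included 2 genes whose genotypes did not overlap, in opposite directions, and 0 of 5 passed. Chrm2, an inhibitory receptor that also serves as autoreceptor (ENSMUSG00000045613, chromosome 6, 36364718 to 36505582, plus strand), had 499, 454, 465 and 482 normalized counts in L192P replicates 1 to 4 and 421, 377, 394 and 409 in WT. All L192P libraries were above all WT libraries, by 0.25 ± 0.09 on the log2 scale (SE, 95% interval 0.08 to 0.43). The DESeq2 adjusted p was 0.168 and ranged from 0.0752 to 0.588 over the alternatives, while the exact permutation test gave its smallest p, 0.0286. Exons of 9330158H04Rik overlap Chrm2 on the opposite strand.

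Chrm1, the most abundant muscarinic receptor of the set (ENSMUSG00000032773, chromosome 19, 8640962 to 8662278, plus strand), had 4227, 4279, 4092 and 4248 normalized counts in L192P and 4306, 4487, 4569 and 4671 in WT. All L192P libraries were below WT, by a small margin against WT replicate 1. On the log2 scale the difference was -0.098 (95% interval -0.20 to 0.0016, DESeq2 adjusted p = 0.539, exact permutation p = 0.0286). Chrm4, a receptor abundant in striatal projection neurons (ENSMUSG00000040495, chromosome 2, 91757594 to 91759033, plus strand), had 492, 445, 408 and 434 in L192P and 441, 556, 512 and 583 in WT. WT replicate 1 lay within the L192P range and the other WT libraries above it. The log2 difference was -0.23 ± 0.11 (SE, DESeq2 adjusted p = 0.441, exact permutation p = 0.0857). On replicates 2 to 4 its adjusted p was 0.0412. The striatum markers, lower in L192P as given above, moved in the same direction, and their part in the Chrm4 value was not tested.

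Chrm3 had 1394 ± 118 normalized counts in L192P and 1551 ± 115 in WT (SD, n = 4), for a log2 difference of -0.15 (95% interval -0.32 to 0.0075). Chrm5, the rarest muscarinic receptor, had 21.7 ± 4.66 and 12.5 ± 8.03. The log2 difference of 0.82 had an interval of -0.10 to 1.74, and WT replicate 1, at 23.7 normalized counts, lay within the L192P range.

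The neuronal nicotinic subunits were higher in point estimate in 7 of the 8 that were tested, with a median log2 fold change of 0.28, and 0 passed. Of all 18627 tested genes, 9418 were higher in point estimate. Chrnb2, the common beta subunit of brain receptors (ENSMUSG00000027950, chromosome 3, 89653502 to 89671953, minus strand), had 1612, 1458, 1542 and 1481 normalized counts in L192P replicates 1 to 4 and 1378, 1444, 1348 and 1342 in WT. All L192P libraries were above WT, and the 2 nearest values were those of replicate 2. The difference was 0.14 ± 0.06 on the log2 scale (SE, DESeq2 adjusted p = 0.398, exact permutation p = 0.0286). Exons of Adar overlap Chrnb2 on the opposite strand. Its usual partner Chrna4 had 870 ± 120 and 793 ± 38.9 (SD, n = 4), for a log2 difference of 0.13 (95% interval -0.06 to 0.33). Without L192P replicate 3 the log2 difference of Chrna4 was 0.059. Chrna7, which forms receptors by itself, had 193 ± 25.5 and 183 ± 27.9, for a log2 difference of 0.08 (interval -0.21 to 0.38).

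Chrna5, Chrna3 and Chrnb4 lie next to each other on chromosome 9, and the ends of Chrna5 and Chrna3 overlap by 790 bases on opposite strands. Their log2 fold changes were -0.24, 0.51 and 0.88, with standard errors of 0.25, 0.30 and 0.60. The groups overlapped for all 3, with means of 47.9, 27.6 and 6.24 normalized counts in WT. Chrna2 had 24.4 ± 10.1 in L192P and 16.1 ± 3.38 in WT (SD, n = 4), for a log2 difference of 0.62 ± 0.39 (SE), and exons of Ptk2b overlap it on the opposite strand. Chrna2, Chrna3 and Chrnb4 were each highest in L192P replicate 3, at 39.2, 57.7 and 17.3 normalized counts. Without that library their log2 fold changes were 0.30, 0.29 and 0.62.

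Chrna6 and Chrnb3 encode subunits that are typical of dopamine neurons and lie 3.5 kb apart on chromosome 8. Chrna6 had 9.34, 9.1, 87.6 and 5.99 normalized counts in L192P replicates 1 to 4 and 8.2, 5.08, 7.6 and 2.34 in WT. The difference rested on L192P replicate 3 alone, and the Cook filter of DESeq2 left the gene without a p. With all libraries the log2 fold change was 2.26, and it was 0.49 without L192P replicate 3. On leaving out L192P replicate 1 the adjusted p of Chrna6 was 0.043. Chrnb3 had 29, 74, 116 and 40.7 in L192P and 24.6, 48, 43.5 and 79.6 in WT. The log2 fold change of Chrnb3 was 0.41, and -0.026 without L192P replicate 3.

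Markers of dopamine neurons, listed after these values were seen, were also high in L192P replicate 3. Slc6a3, the dopamine transporter, had 629.5 normalized counts there and 1.09 to 10.5 in the other 7 libraries. Th, the enzyme that starts dopamine synthesis, had 368 there and 60.8 to 121 elsewhere. The summed level of the 8 genes was 3322 in that library, 1700 to 1731 in the other L192P libraries and 1600 to 1730 in WT. Their part in the Chrna6 and Chrnb3 values was not tested. Chrna9 and Chrna10, subunits of the inner ear, had at most 3 and 7 reads in a library and no adjusted p.

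Of the muscle subunits, Chrnb1 and Chrna1 entered the adjusted test and 0 passed. Skeletal muscle markers had summed levels of 361 to 440 normalized counts in L192P and 365 to 437 in WT, mostly from Acta1, and 0 of 6 tested were called. Chrnb1, the most abundant muscle subunit, had 36.4, 17.1, 19.6 and 28.7 normalized counts in L192P replicates 1 to 4 and 34.6, 21.5, 23.9 and 33.9 in WT. The groups overlapped, and the log2 difference was -0.14 ± 0.35 (SE, DESeq2 adjusted p = 0.978, exact permutation p = 0.6). Chrna1 had 15.6 ± 7.4 and 20.3 ± 7.62 (SD, n = 4), for a log2 difference of -0.39 (95% interval -1.27 to 0.50). Chrne had at most 5 reads in a library, and Chrng had 3 reads in all, in WT replicates 3 and 4. A count of 0, as for Chrnd, allows up to 3 counts per library, or 1.69 to 3.59 normalized counts.

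The Ly6 proteins, which bind nicotinic receptors and change their response or transport, differed in direction. Lynx1 (ENSMUSG00000022594, chromosome 15, 74619687 to 74624895, minus strand) had 9526, 9704, 11059.6 and 10645 normalized counts in L192P replicates 1 to 4 and 9915, 12531, 12806 and 12407 in WT. WT replicate 1 fell within the L192P range, and the other 3 WT libraries lay above every L192P library. On the log2 scale the difference was -0.22 ± 0.09 (SE, 95% interval -0.39 to -0.05, DESeq2 adjusted p = 0.259, exact permutation p = 0.0857). Over the alternatives the adjusted p ran from 0.000746, reached without WT replicate 1, to 0.675. Within each replicate number, L192P was lower than WT in 4 of 4 pairs. Lynx1 lies 1.56 Mb from Ago2 on the same chromosome and Ly6h 2.37 Mb from it. The part of this position near the edited locus in the values of either gene was not tested.

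Lypd1 (ENSMUSG00000026344, chromosome 1, 125795357 to 125841150, minus strand) had 1417, 1385, 1234 and 1372 normalized counts in L192P and 1407, 1053, 956 and 1161 in WT. Again WT replicate 1 was within the L192P range and the other WT libraries were outside it, here below. The difference on the log2 scale was 0.24 ± 0.11 (SE, DESeq2 adjusted p = 0.395, exact permutation p = 0.114). Over the alternatives the adjusted p ran from 0.00408, again without WT replicate 1, to 0.831. Exons of Gpr39 overlap Lypd1 on the opposite strand. Lypd6 (ENSMUSG00000050447, chromosome 2, 49956422 to 50083589, plus strand) had 720.3, 773, 676 and 767 in L192P and 637, 660.4, 618 and 699 in WT, where only L192P replicate 3 reached into the WT range. For Lypd6 the log2 difference was 0.17 ± 0.08 (SE, DESeq2 adjusted p = 0.483, exact permutation p = 0.0571). Ly6h had 4670 ± 304 and 4174 ± 658 (SD, n = 4), for a log2 difference of 0.16 (95% interval -0.04 to 0.36).

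Of the chaperones, Tmem35a, which promotes the assembly of nicotinic receptors (ENSMUSG00000033578, chromosome X, 133195974 to 133206718, plus strand), had 2013, 2134, 1825 and 2144 normalized counts in L192P replicates 1 to 4 and 1989, 1799, 1741 and 1831 in WT. L192P replicate 3 lay within the WT range, and the log2 difference was 0.14 ± 0.07 (SE, DESeq2 adjusted p = 0.547, exact permutation p = 0.0857). Ric3 had 1973 ± 117 and 2013 ± 114 (SD, n = 4), for a log2 difference of -0.028 (95% interval -0.16 to 0.11).

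Other genes of the pathway were read from lists beside the members. Among 18 genes of muscarinic signalling, 2 were called lower and 0 higher. Rgs4, a brake on G proteins of muscarinic and other receptors, was lower in L192P, at 13995 ± 2080 normalized counts, than in WT, at 19788 ± 1986 (SD, n = 4). The DESeq2 adjusted p was 0.000483 at a log2 fold change of -0.50, and the call was lost by edgeR, limma-voom and limma-trend (adjusted p = 0.063, 0.062 and 0.0703). The genotypes did not overlap for Rgs4. The G proteins, phospholipases and kinases of the list did not pass, and the median over the list was -0.042. At an unadjusted DESeq2 p under 0.05, 1 of the 18 was higher and 5 were lower, beside 4.94% and 4.49% of all tested genes.

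Among the genes of choline supply 0 of 9 tested were called, with a median log2 fold change of -0.12 and 0 at an unadjusted DESeq2 p under 0.05. Among receptor assembly and clustering genes 0 of 10 were called, with a median of 0.021, and among other Ly6 proteins 0 of 5, with a median of -0.033. Both lists also had 0 genes at an unadjusted p under 0.05, and edgeR called none of them. Of the markers of other cells and regions, those for thalamus, hippocampus, skeletal muscle, endothelium, microglia, astrocytes and oligodendrocytes had 0 genes called. Cortical neuron markers had 1 called higher (Gad2, log2 fold change 0.34) and deep layer markers 2 lower (Syt6, -0.32, and Cplx3, -0.43). Medial habenula markers had 1 called higher (Pou4f1, 2.88) and hypothalamus markers 2 (Avp, 4.22, and Oxt, 4.53). At an unadjusted DESeq2 p under 0.05, 1 of the 7 cortical neuron markers was higher and 3 were lower (median log2 fold change -0.13). The deep layer markers likewise had 1 higher and 3 lower. The Gad2 call was lost on leaving out L192P replicate 2 or 4 or WT replicate 2, 3 or 4 (adjusted p up to 0.146). Syt6 lost its call on leaving out L192P replicate 3 or 4 or WT replicate 1, 2 or 4 (up to 0.254), and Cplx3 on leaving out L192P replicate 1, 3 or 4 or WT replicate 1, 2 or 4 (up to 0.203). By edgeR without a block, Gad2, Syt6, Cplx3 and Tac2 were not called, with adjusted p-values from 0.102 (Tac2) to 0.169 (Cplx3). With the replicate block, edgeR called each of them (adjusted p from 0.0109 for Syt6 to 0.0367 for Tac2). DESeq2 with the block called them too (from 0.00501 for Syt6 to 0.0481 for Tac2). These fits called 3.01% and 4.25% of all genes tested. Thalamus markers had a median log2 fold change of 0.64, with 2 of 7 higher and 0 lower at an unadjusted DESeq2 p under 0.05. Their summed level was 4689 normalized counts in L192P replicate 1 and 6011 in L192P replicate 3. In L192P replicate 3 the subunits Chrna6, Chrnb3, Chrna2, Chrna3, Chrna4 and Chrnb4 were also highest. The summed level of thalamus markers was 2504 and 2806 in the other L192P libraries and 2419 to 3171 in WT. Microglia markers had 2 of 5 higher at an unadjusted p under 0.05, with a median of 0.23. The summed level of hypothalamus markers was 248 to 1308 normalized counts in L192P, highest in L192P replicate 3 as well, and 125 to 220 in WT. Pou4f1 was near 0 in WT, at 1.13 to 3.51, and L192P replicate 2 was also low, at 3.41. Of the 5 medial habenula markers, 1 had an unadjusted DESeq2 p under 0.05, and the median log2 fold change was -0.038. Their summed level was 1478 to 1895 normalized counts in L192P and 1534 to 2026 in WT. The part of these regions in the values of the members was not tested.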

How the data were processed

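Stranded mRNA libraries were prepared from mouse cortex, 4 libraries for L192P and 4 for WT. The authors aligned reads with STAR (2.7.9a in the processing notes) to GRCm39, and deposited gene counts from featureCounts 1.5.1 for each library, without pooling. The strand setting and the annotation release are not given in the sources used here. The authors also deposited a normalized signal table of counts divided by size factors, from which whole reads were recovered for 100% of values (largest difference 2.9e-10), and a test on those reads made the same 253 calls.

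DESeq2 1.42.0 (R 4.3.3) was fitted to all genes with genotype as the only term, with independent filtering at 0.05, the Cook filter and Benjamini-Hochberg adjustment; a call is an adjusted p under 0.05. Independent filtering left 14037 genes and the Cook filter 12 genes without an adjusted p. Fold changes are not shrunken, and 95% intervals are the estimate ± 1.96 standard errors. Exact two-sided permutation tests over 70 assignments of the libraries compared normalized counts and were not adjusted. The assignments disregarded the replicate numbers, which are taken to pair the libraries below, so these p-values ignore the pairing. The labels do not state that libraries of a group came from separate animals beyond their replicate numbers, so p-values measure the spread between these libraries. Libraries of a genotype differed beyond sampling noise (chi-square per degree of freedom 5.98 to 25).

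Over 13422 genes, deviations from the group mean correlated between same-numbered libraries at 0.63, 0.38, 0.23 and 0.33, so the numbers were taken to pair the libraries. The labels do not say what the numbers stand for. Alternatives were edgeR 4.0.16, limma 3.58.1 (voom, or trend on log2(x + 1) of the normalized table), TMM or total-count factors, at least 10 counts in at least 4 libraries, filters off, the replicate block, replicates 2 to 4, and leaving out each library. The recovered reads and edgeR with the block were chosen after seeing the data. The programs were tested on simulated data.

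The members and the 18 lists were chosen with earlier results of these data known. The miRNA families and the dopamine neuron list were chosen after the values were seen. Named were members with an adjusted or unadjusted p under 0.05 or without overlap, the presynaptic genes, the most abundant member of each class, and up to 3 called genes of a list. Exon lengths, positions and 3′ UTRs were from GENCODE M39 on GRCm39, where 98.8% of gene identifiers matched. Exons of 15 members overlap a gene on the opposite strand and those of 1 a gene on its own strand. miRNA sequences were taken from RefSeq (GRCm38.p6). Values of a few listed genes are not reported here.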

Additional observations from a re-analysis of the deposited data

Results flagged for a closer look

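Each genotype's 4 values of a member were checked for 1 library that lay apart, by the gap to its nearest neighbour as a share of the range. Of 58 such groups 2 had a library apart, where chance gives about 2.9. For Chrna6 it was L192P replicate 3, at 87.6 normalized counts, and the remaining L192P libraries had 5.99 to 9.34 (gap share 0.959). For Lynx1 it was WT replicate 1, at 9915 normalized counts, and the remaining WT libraries had 12407 to 12806 (gap share 0.862). L192P replicate 1, which like WT replicate 1 was low in Xist, was the lowest L192P library for Lynx1, at 9526 normalized counts.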

How the results depend on the processing

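Of 557 fits of single tested members under the 20 alternatives, 535 gave an adjusted p and 22 did not. Of those 535, 515 kept the direction and the side of the threshold, 13 passed it where the reported fit did not, and 7 turned in sign. The fit on the recovered reads has the same counts as the reported fit and so could not differ from it. Turning off a filter leaves the log2 fold change of a tested member as it was. With the replicate block 533 genes were called in place of 253, 3 members in place of 0 and 23 listed genes in place of 12. By edgeR with the block the counts were 537, 2 and 28, and on replicates 2 to 4 they were 500, 4 and 20. By edgeR, limma-voom and limma-trend without a block, 53, 45 and 51 genes and 4, 1 and 3 listed genes were called. The members whose genotypes did not overlap numbered 3, and 2 with TMM factors and 3 with total-count factors. Leaving out 1 library gave 112 (without WT replicate 4) to 496 genes (without WT replicate 1), 0 to 3 members (3 without WT replicate 1, 1 without L192P replicate 1 and 1 without L192P replicate 3) and 5 (without WT replicate 2) to 16 listed genes (without WT replicate 1).

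The sign of a log2 fold change turned in 7 fits, of Bche, Chrnb1, Chrnb3, Prima1 and Ric3, none of which was called. Leaving out 1 library gave -0.050 (without L192P replicate 3) to 0.149 for Bche, -0.377 to 0.011 (without L192P replicate 2) for Chrnb1, -0.026 (without L192P replicate 3) to 0.739 for Chrnb3, -0.062 (without WT replicate 1) to 0.063 for Prima1 and -0.060 to 0.0066 (without L192P replicate 2) for Ric3. Prima1 also had -0.02 without L192P replicate 1 and -0.10 on replicates 2 to 4. The cause was not tested for any of these.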
